A study of Callithrix jacchus with 54 samples.

Results

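Primordial germ cell-like cells (PGCLCs) of the common marmoset, induced with a WNT inhibitor, were compared at 96 h with cells that had received the same cytokines without it. The comparison rests on 4 of the 54 libraries of the study, 2 replicates against 2, chosen by their labels and not by any measured value. The first arm (IWR1 PGCLCs) was the CMES40 embryonic stem cell line (cjESC) of genotype wild type, kept in the medium PESFA, pre-treated for a day with the WNT agonist IM12 and activin A, and then cultured for 96 h with BLSE (BMP4, LIF, SCF and EGF), a Rock inhibitor, and IWR1, an inhibitor of WNT signaling. Its cells were sorted as tdTomato(+), since both arms carried the reporters BLIMP1-tdTomato (BT) and NANOS3-eGFP (NG), and the labels call them cjPGCLC. The second arm (BLSE cells) came from CMES40 cells that also carried rtTA, tetO-BLIMP1, SOX17-GR and DD-TFAP2C (TG+ line, from picked colonies), whose last transgene is numbered differently from library to library in the labels. These cells were kept in DK20FA, had no pre-treatment, received BLSE and Rock inhibitor for 96 h without dexamethasone, and were collected unsorted as differentiated cells. IWR1, cell line, medium, pre-treatment and sorting therefore differed together and cannot be told apart in the comparison at 96 h.

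Primordial germ cells (PGCs) are the embryonic founders of eggs and sperm. In primates they arise around gastrulation, when BMP and WNT signals act on posterior epiblast and nascent amnion, and a small set of transcription factors (SOX17, BLIMP1, TFAP2C) turns on germ cell genes while somatic programs are kept down. The same BMP and WNT signals also make mesoderm, so cells in an induction culture can enter the mesodermal path. WNT ligands stabilise β-catenin, which acts with TCF/LEF factors on target genes, and IWR1 blocks that step by stabilising the axin complex.

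Levels were given as TPM (transcripts per a fixed number of transcripts in the library, scaled for transcript length), and differences as IWR1 arm minus BLSE arm on the log2(TPM + 1) scale, each written with its standard error (± SE). Where 2 values stand on each side of "against", they are replicates 1 and 2 of BLSE cells and then of IWR1 PGCLCs. A gene was called when it differed more than 4-fold with an adjusted p under 0.01 (limma, Benjamini-Hochberg over 11197 genes) and a mean log2 level above 1.5. TPM keep no read totals, so the depth behind each value is unknown. The 4 libraries held between 11625 and 12036 genes above 0 TPM, and replicates correlated across genes at r = 0.9904 for BLSE cells and 0.9862 for IWR1 PGCLCs. A gene listed at 0 TPM may be an estimate that failed, because FN1, a matrix gene of most cultured cells, was listed at 0 in all 54 libraries.

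In IWR1 PGCLCs, 9 of 14 PGC specification genes and 5 of 13 core pluripotency genes were higher than in BLSE cells, and 16 of 26 HOX genes and 12 of 20 factors of lateral and extraembryonic mesoderm were lower. The PGC specification and core pluripotency lists share PRDM14 and UTF1, and the former holds PRDM1 (BLIMP1), the gene of the sorted reporter. In bulk libraries such as these, fewer cells of a type and less RNA per cell cannot be told apart. Of 11197 genes tested, 429 were higher in IWR1 PGCLCs (3.83%) and 528 were lower (4.72%). The median of all genes was 0.20 on the log2 scale. When the libraries were rescaled so that this median came to 0.00 (median-ratio scaling), the split became 337 higher and 650 lower. The leading genes on the higher side were TBXT, NANOG and CDH2, and those on the lower side were TBX4, CYP26A1 and CIDEC.

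**Figure D1:**
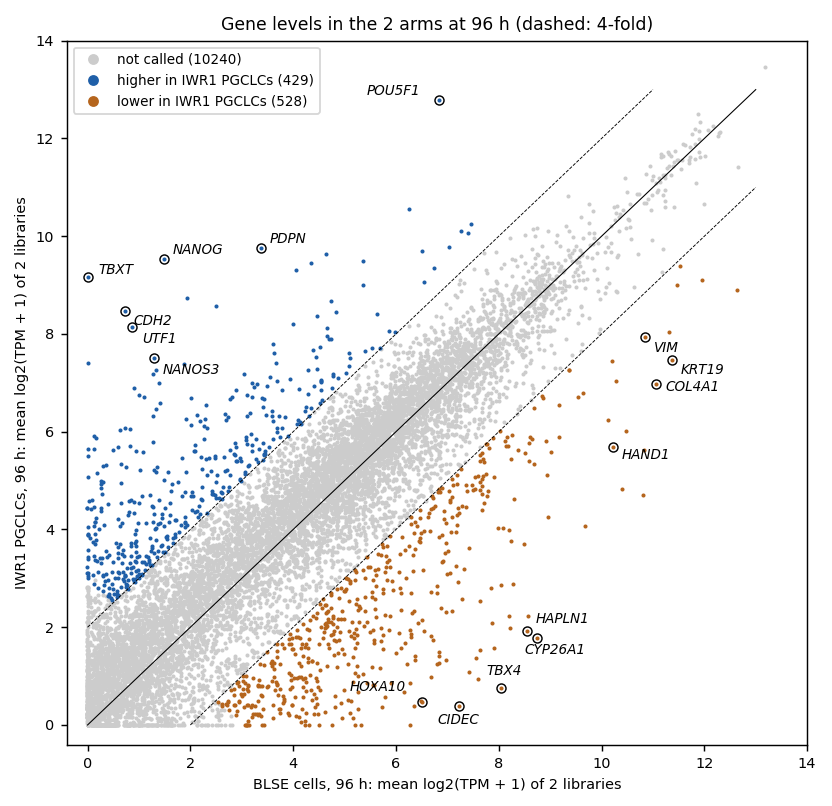
Mean log2(TPM + 1) of each tested gene over 2 libraries of BLSE cells at 96 h (x axis) and 2 libraries of IWR1 PGCLCs at 96 h (y axis). The 429 genes called higher and 528 called lower in IWR1 PGCLCs are coloured, dashed lines mark 4-fold, and the germ cell genes named lie high on the left while TBX4, CYP26A1, CIDEC and HAPLN1 lie low on the right.

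The cells were first checked against their labels. SOX17, which specifies primate germ cells, stood at 34.6 and 46 TPM in the BLSE libraries and at 474 and 555 TPM in the IWR1 libraries (3.65 ± 0.29). NANOS3, an RNA-binding protein that protects germ cells from death, stood at 1.94 and 1.05 against 146 and 225 TPM (6.21 ± 0.29). TFAP2C, an AP-2 factor of early germ cells, stood at 199 and 221 against 771 and 859 TPM and at 1.95 fell just short of the 4-fold limit. PRDM1, the gene of BLIMP1 and of the sorted reporter, stood at 11.6 and 11.9 against 156 and 181 TPM, and since the IWR1 cells were gated on it, its difference is part of the sort. In the TG+ line, reads of the human SOX17, BLIMP1 and TFAP2C transgenes may be counted with the marmoset genes. Of the genes that define the label cjPGCLC, SOX17 and NANOS3 were thus called higher, TFAP2C was higher without a call, and PRDM1 was part of the sort. The paper describes the IWR1 cells at 96 h as positive for both reporters, so NANOS3 may be part of the sort as well. Sorted cells were set beside unsorted ones, so this check is not independent of the gate.

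Of 14 PGC specification genes tested, 9 were higher in IWR1 PGCLCs and 5 were not called, with a median of 3.69 against 0.20 for all genes. The 9 include PRDM1, which was part of the sort, and NANOS3, the gene of the other reporter. PRDM14 and UTF1 are counted among the core pluripotency genes as well. DND1, a partner of NANOS proteins that shields germ cell transcripts, stood at 2.63 and 7.80 TPM in BLSE cells and 404 and 355 TPM in IWR1 PGCLCs (6.07 ± 0.25). TCL1A, a kinase coactivator, stood at 0 and 0.66 TPM in BLSE cells and 41.5 and 36.2 TPM in IWR1 PGCLCs (4.95 ± 0.41). SOX15, a SOX factor of primate germ cells, differed by 4.25 ± 0.26, and DPPA3, a maternal and germ cell factor that guards methylation, by 3.19 ± 0.24. PRDM14, a repressor that keeps pluripotency, was at 0.18 and 0 TPM in BLSE cells and 53.5 and 66.1 TPM in IWR1 PGCLCs (5.80 ± 0.24). The uncalled members were TFAP2C, CBFA2T2 (1.99), TFCP2L1 (1.86), KLF4 (1.03) and ARID5B (0.65). The summed level of a list, here and in what follows, is the sum of TPM over its members in the table, tested or not, and for these 14 genes it ran from 291.7 to 347.8 TPM in the BLSE libraries and from 2545.4 to 2807.4 TPM in the IWR1 libraries.

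Some pluripotency factors were higher and others were not called. POU5F1 (OCT4), shared by germ cells and pluripotent cells, stood at 103 and 125 TPM in BLSE cells and at 7085 and 6996 TPM in IWR1 PGCLCs (5.94 ± 0.10). NANOG, its partner, stood at 1.46 and 2.17 against 795 and 691 TPM (8.05 ± 0.17), and UTF1, a chromatin factor of pluripotent and germ cells, at 0.60 and 1.08 against 271 and 293 TPM (7.28 ± 0.19). SOX2, which primate PGCs shut off, was low in every library of both arms, at 2.08 and 1.01 TPM against 1.21 and 0 TPM (-0.74 ± 0.28, not called). TDGF1, a NODAL coreceptor, was higher in IWR1 PGCLCs (3.68 ± 0.17). SALL4, LIN28A and LIN28B, which both states use, were not called (0.51, -0.34 and -1.22), and LIN28A stood at 893 and 861 TPM in the IWR1 libraries. In the list of 13 core pluripotency genes, 5 were higher and 8 were not called, and the median was 0.51.

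Among 12 genes associated with naive pluripotency, 5 were higher and 7 were not called, with a median of 2.17. DPPA5, a KH-domain RNA-binding protein, stood at 13.8 and 17.8 TPM in BLSE cells and 690.4 and 576 TPM in IWR1 PGCLCs (5.24 ± 0.16). KLF5, a zinc finger factor, differed by 2.48 ± 0.17, KHDC3L, a maternal-effect gene, by 2.78 ± 0.25, and SUSD2, a surface marker of naive cells, by 3.78 ± 0.25. KLF17, a factor of the naive state, was listed at 0 in each BLSE library and stood at 6.72 and 4.07 TPM in the IWR1 libraries, and its mean level was too low for a call.

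Among surface and adhesion genes, 2 cadherins were in the top 15. CDH2 (N-cadherin) stood at 0.53 and 0.77 TPM in BLSE cells and at 369.9 and 339.8 TPM in IWR1 PGCLCs (7.76 ± 0.19). CDH8, another cadherin, was listed at 0 in both BLSE libraries and stood at 177 and 159 TPM in the IWR1 libraries, and it passed the test. PDPN (podoplanin), a surface marker of primate germ cells, stood at 9.24 and 9.40 against 847 and 877 TPM (6.39 ± 0.13). CDH1 (E-cadherin) was not called, at 35.5 and 43.6 against 31.2 and 36.4 TPM (-0.22 ± 0.19), and the epithelial adhesion molecule EPCAM at 279 and 256 against 364 and 421 TPM. KIT, the SCF receptor of germ cells, was at 0.08 and 0.07 TPM in BLSE cells and at 3.90 and 2.61 TPM in IWR1 PGCLCs (1.97 ± 0.21, just under 4-fold). In all, 4 of 12 germ cell surface genes were higher, among them THY1, a small surface glycoprotein (2.07 ± 0.29). THY1 was not called in 5 of the 11 alternative settings, including those without BLSE replicate 1 and without IWR1 replicate 2. The median of the list was 0.80, or 0.17 without the members listed at 0 in an arm.

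Genes of later germ cells were mostly low in both arms. DDX4 (VASA), an RNA helicase of gonadal germ cells, reached at most 0.43 TPM in the 4 libraries. DMRT1, a DM-domain factor of the gonad and germ line, stood at 5.77 and 4.80 TPM in IWR1 PGCLCs and was listed at 0 in each BLSE library, again below the level for a call. STK31, a kinase of the germ line, was the 1 called gene of 12, at 0.36 and 0.91 against 12.2 and 10.1 TPM (2.90 ± 0.29).

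Some genes with the largest excess in IWR1 PGCLCs belonged to none of these lists. PIM2, a survival kinase, stood at 2.0 and 3.90 TPM in BLSE cells and 439 and 417 TPM in IWR1 PGCLCs (6.81 ± 0.21). EEF1A2, an elongation factor isoform of neurons and muscle, differed by 5.93 ± 0.30, and RTN4RL1, a Nogo receptor relative, by 5.91 ± 0.26. SGSM1, a regulator of small GTPases, differed by 5.98 ± 0.26, and CCDC40, needed to assemble cilia, by 5.75 ± 0.22. Both libraries of IWR1 PGCLCs lay above both BLSE libraries for all 15 genes at the top of the list. These genes were picked by the size of this same difference, so their separation is no further support.

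On the other side, the 4 genes TBX4, CYP26A1, CIDEC and HAPLN1 ranked 1, 2, 3 and 5 among the genes lower in IWR1 PGCLCs. TBX4 (gene 100411523), a T-box factor of hindlimb, lung and allantois mesoderm, stood at 233 and 293 TPM in BLSE cells and 1.57 and 0.12 TPM in IWR1 PGCLCs (-7.27 ± 0.35, adjusted p = 5.86e-19). CYP26A1 (gene 100388379), which degrades retinoic acid, stood at 368 and 495 against 5.06 and 0.95 TPM (-6.96 ± 0.39, adjusted p = 2.67e-17). CIDEC (gene 100400704), a protein that fuses lipid droplets, stood at 163 and 134 against 0 and 0.69 TPM (-6.84 ± 0.42, adjusted p = 4.22e-16). HAPLN1 (gene 100402072), which links proteoglycans to hyaluronan in the matrix, stood at 402 and 349 against 2.12 and 3.67 TPM (-6.62 ± 0.32, adjusted p = 3.46e-19). Both BLSE libraries lay above 130 TPM for each of the 4, and both IWR1 libraries lay below 6 TPM. All 4 kept their call in each of the 11 alternative settings.

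The paths by which the 4 genes reached these levels were not alike. TBX4 was low in cjESC of both media, at 1.0 and 1.89 TPM in DK20FA and 6.65 and 12.5 TPM in PESFA, and in BLSE cells it climbed to 8.41 and 9.31 TPM at 12 h, 27.3 and 27.1 TPM at 24 h and 132 and 144 TPM at 48 h. In the IWR1 arm TBX4 was still at 5.89 and 11.3 TPM at 48 h. CYP26A1 started high in both arms, at 199.7 and 302 TPM in DK20FA and 185 and 136 TPM in PESFA, and at 48 h still stood at 131 and 115 TPM in the IWR1 arm against 329 and 379.6 TPM in BLSE cells, a difference that was not called (-1.51 ± 0.39). HAPLN1 differed before induction, with 298 and 316 TPM in DK20FA and 40.6 and 31.4 TPM in PESFA (-3.07 ± 0.32), and CIDEC did too, with 19.1 and 60.9 TPM in DK20FA and 3.30 and 9.06 TPM in PESFA (-2.42 ± 0.42). TBX4 differed the other way at the start (2.08 ± 0.35). The change from the starting cells to 96 h, tested as a difference of differences, was lower in the IWR1 arm for all 4, by -9.35 ± 0.50 for TBX4, -6.33 ± 0.55 for CYP26A1, -4.42 ± 0.60 for CIDEC and -3.55 ± 0.45 for HAPLN1.

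**Figure D2:**
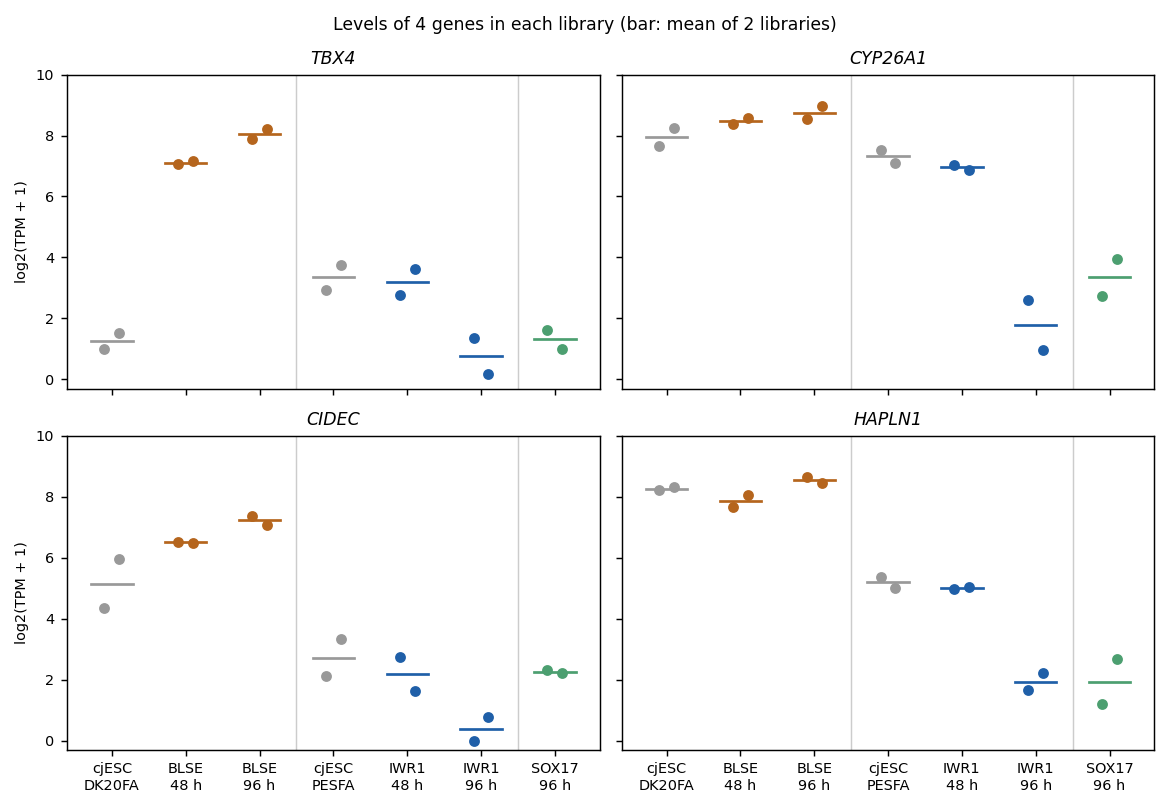
Log2(TPM + 1) of TBX4, CYP26A1, CIDEC and HAPLN1 in each library (points) of the starting cjESC, the 48 h and the 96 h cells of both arms, and the SOX17 PGCLCs at 96 h, with the mean of 2 libraries as a bar. All 4 genes stand above 7 in BLSE cells at 96 h and below 3 in IWR1 PGCLCs, and HAPLN1 and CIDEC already differ between the starting cells.

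SOX17 PGCLCs at 96 h were set beside them, since they came from the same TG+ line and the same DK20FA medium as the BLSE cells, with no pre-treatment and no IWR1, but with dexamethasone to switch on SOX17-GR and a tdTomato(+) sort. In them, TBX4 stood at 2.06 and 1.01 TPM, CYP26A1 at 5.73 and 14.5 TPM, CIDEC at 3.98 and 3.62 TPM and HAPLN1 at 1.29 and 5.37 TPM. These levels lay below those of both BLSE libraries at 96 h for all 4 genes. Against SOX17 PGCLCs, IWR1 PGCLCs had 3 genes called higher (0.0268%) and 61 called lower (0.545%), and the 4 genes were not among them, with differences (IWR1 minus SOX17 PGCLCs) of -0.55 ± 0.35, -1.57 ± 0.39, -1.88 ± 0.42 and 0.00 ± 0.32 in the same order. The total of 64 became 98 without SOX17 replicate 1 and 41 without SOX17 replicate 2, and with only these 4 libraries in the limma model 0 genes passed and 2134 had an unadjusted p under 0.05. Among the 61 lower genes were CDX2 (-2.13 ± 0.42), VGLL1 (-3.40 ± 0.44), MSX1 (-2.60 ± 0.40) and DLX3 (-2.99 ± 0.40), which are transcriptional regulators of posterior, trophoblast and ectodermal cells. This comparison shares the IWR1 libraries with the comparison above, so the counts of both stand side by side only.

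HOX genes, which give cells their position along the body axis, formed the list with the most genes lower in IWR1 PGCLCs. Of 30 HOX genes in the table, all of the A, B and C clusters, 26 were tested, 16 were called lower and 10 were not called. The median was -3.60, or -4.70 without the 10 genes listed at 0 in both libraries of an arm, against 0.20 for all genes. HOXA10, an abdominal to posterior gene, stood at 88.5 and 91 TPM in BLSE cells and 0.38 and 0.39 TPM in IWR1 PGCLCs (-6.03 ± 0.24). HOXA13, the most posterior of its cluster, stood at 93.3 and 84.1 against 0.14 and 0.72 TPM (-6.00 ± 0.29), and HOXB6 at 66.4 and 74 against 0.57 and 0.60 TPM (-5.49 ± 0.29). The lower genes were 8 of 10 tested in cluster A and 7 of 9 in cluster B, but 1 of 7 in cluster C (HOXC11). The summed HOX level was 717.0 to 731.2 TPM in the BLSE libraries, 4.1 to 9.0 TPM in the IWR1 libraries and 14.8 to 15.1 TPM in the SOX17 PGCLCs.

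**Figure D3:**
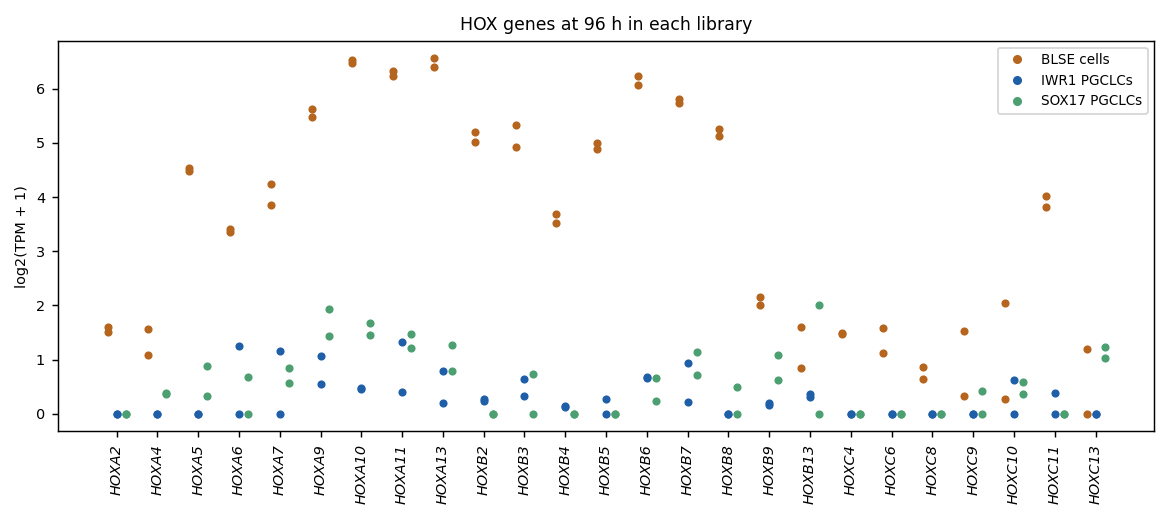
Log2(TPM + 1) of 25 of the 26 tested HOX genes (x axis, by cluster and number) at 96 h in each library (points) of BLSE cells, IWR1 PGCLCs and SOX17 PGCLCs. Most A and B cluster genes stand between 3 and 7 in BLSE cells and below 2 in both kinds of PGCLC, while most C cluster genes are low in all 3.

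The HOX difference was present at 48 h, when cells of both arms were unsorted. At that time 15 of the 26 were lower in the IWR1 arm, with a median of -2.69, and HOXA10 stood at 85 and 102 TPM in BLSE cells and 2.36 and 2.15 TPM in the IWR1 arm (-4.85 ± 0.24). In BLSE cells HOXA10 had already reached 26.2 and 33.8 TPM at 12 h. The starting cells did not show this pattern, since 4 HOX genes were higher in PESFA, 1 was lower, and the median was 1.34. IWR1, cell line, medium and pre-treatment still differed together at 48 h. The part of each in the HOX difference was not tested.

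Many transcription factors of lateral and extraembryonic mesoderm were lower in IWR1 PGCLCs as well. Of 20 tested, 12 were lower and 8 were not called, with a median of -2.81. FOXF1, a forkhead factor of splanchnic mesoderm, stood at 115 and 88.7 TPM in BLSE cells and 0.64 and 1.38 TPM in IWR1 PGCLCs (-5.69 ± 0.32). PITX1, a hindlimb factor that acts with TBX4, stood at 182 and 196 against 1.54 and 1.65 TPM (-6.19 ± 0.47). HAND1, a basic helix-loop-helix factor of heart and extraembryonic mesoderm, stood at 1225 and 1171 against 40.0 and 64.2 TPM (-4.53 ± 0.32). TBX20, a cardiac T-box factor, differed by -4.75 ± 0.38, GATA6, a factor of mesoderm and endoderm, by -3.21 ± 0.33, and ISL1, a factor of cardiac and hindlimb progenitors, by -2.05 ± 0.27. BMP4, which these cells make as well as receive, stood at 533 and 564 against 134 and 185 TPM (-1.79 ± 0.19, not called). ISL1 was not called in 3 of the 11 alternative settings, including those without BLSE replicate 2 and without IWR1 replicate 1. The summed level of the list was 2811.0 to 2885.8 TPM in BLSE cells and 351.7 to 511.6 TPM in IWR1 PGCLCs.

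T-box genes as a family went both ways. Among 11 tested, TBX2, TBX3, TBX4 and TBX20 were lower, and TBXT and TBX1 were higher. TBXT (brachyury), a WNT target of the primitive streak, was listed at 0 in both BLSE libraries and stood at 504 and 647 TPM in IWR1 PGCLCs and 477 and 411 TPM in SOX17 PGCLCs. It stood at 435 and 404 TPM in cjESC in DK20FA, at 79.9 and 52.7 TPM in cjESC in PESFA, and at 48 and 42.4 TPM in BLSE cells at 48 h. TBX3, which BMP signals induce, differed by -2.44 ± 0.29. It was not called in 2 of the 11 alternative settings, including that without IWR1 replicate 1. TBX1 stood at 2.12 and 3.44 against 12.3 and 22.9 TPM. It was not called in 2 of the 11 alternative settings, including that without IWR1 replicate 2.

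Several genes of the primitive streak were low in both arms at 96 h. MIXL1, a homeobox gene of the streak, and NODAL, a TGF-β family ligand made there, reached at most 3.42 and 3.04 TPM. EVX1, a homeobox gene of the posterior streak, was lower in IWR1 PGCLCs (108 and 132 against 6.03 and 13.5 TPM, -3.57 ± 0.32), as were CDX2, a caudal factor that activates HOX genes (62.7 and 55.2 against 0.33 and 1.46 TPM, -5.05 ± 0.42), and APLNR, a receptor of migrating mesoderm (233 and 246 against 1.70 and 2.26 TPM, -6.34 ± 0.34). CDX1 went the other way (0.72 and 2.38 against 13.7 and 20.2 TPM, 2.87 ± 0.31). The list of 17 thus had 2 genes higher, 3 lower and 12 not called, and a median of 0.83. The higher count was 3 without BLSE replicate 1 or without IWR1 replicate 2, and 1 with only the 4 libraries compared in the model.

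Genes listed for the epithelial to mesenchymal transition (EMT) were mostly lower or not called. Of 15 tested, 7 were lower, 1 was higher and 7 were not called, and the median was -1.94. VIM (vimentin), the filament protein of mesenchymal cells, stood at 1924 and 1763 TPM in BLSE cells, 229 and 259 TPM in IWR1 PGCLCs and 68.4 and 59.7 TPM in SOX17 PGCLCs (-2.91 ± 0.19 between the arms). SNAI2 (SLUG), a repressor of epithelial genes, stood at 44.4 and 31.7 against 0.85 and 1.2 TPM (-4.26 ± 0.31), and TWIST1, a mesenchymal factor, at 16.7 and 19.2 against 0.38 and 0.90 TPM (-3.55 ± 0.32). HMGA2, a chromatin protein of embryonic mesenchyme, differed by -4.13 ± 0.38, and SNAI1 by -1.94 ± 0.20, just under 4-fold. ESRP1, an epithelial splicing factor, was the 1 member that was higher (2.23 and 1.93 against 27 and 26.5 TPM, 3.17 ± 0.25), or 1 of 2 without BLSE replicate 2 or without IWR1 replicate 1. KRT8 and KRT18, keratins of simple epithelia that this list also held, were lower in IWR1 PGCLCs (-2.47 ± 0.14 and -2.84 ± 0.14), in the same direction as vimentin. CDH2 (N-cadherin), which this list did not hold, went the other way (7.76 ± 0.19).

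Of 21 matrix genes tested, 8 were lower in IWR1 PGCLCs at 96 h and 13 were not called, with a median of -1.81. COL4A1 and COL4A2, the main collagen chains of basement membrane, stood at 2118 and 2154 against 101 and 157 TPM (-4.08 ± 0.23) and 1186 and 1308 against 113 and 150.3 TPM (-3.25 ± 0.21). DCN (decorin), a proteoglycan of connective tissue, stood at 1703 and 1054 against 26.2 and 28.6 TPM (-5.56 ± 0.44), LUM (lumican), its relative, at 98.1 and 68.5 against 0.85 and 2.80 TPM (-4.97 ± 0.33), and OLFML2B, an olfactomedin-like matrix protein of rank 4, at 206 and 180.0 against 0.84 and 0.99 TPM (-6.66 ± 0.35). COL1A1, the chain of fibrillar collagen, was not called at 96 h (9.34 and 10.4 against 9.94 and 15.7 TPM). In the starting cells, however, COL1A1 stood at 41.8 and 83.6 TPM in DK20FA and 1598 and 878 TPM in PESFA (4.30 ± 0.38), and 11 of the 21 genes were higher in PESFA. The summed matrix level was 6728.5 to 7328.4 TPM in cjESC in PESFA, 971.4 to 1300.4 TPM in the IWR1 arm at 48 h and 955.2 to 1172.6 TPM in IWR1 PGCLCs, while in the BLSE arm it was 2561.9 to 3195.8, 4163.0 to 4804.9 and 7807.0 to 8109.0 TPM. The cjESC had been sorted as TRA-1-60(+) from cultures on mouse feeder cells, and the part of feeder cells in these levels was not tested. Outside the lists, the leading genes of the BLSE cells included GDF10, a BMP-family ligand (177 and 168 against 1.18 and 1.08 TPM, -6.34 ± 0.40), and PCP4, a calmodulin regulator (64.5 and 101 against 0 and 0.70 TPM, -5.97 ± 0.43).

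HAPLN1 and CIDEC were then set among related genes. Of 10 tested genes of hyaluronan and its link proteins, HAPLN1 was the 1 called gene. VCAN (versican), a proteoglycan that HAPLN1 binds, stood at 80.0 and 85.9 against 52.4 and 78.5 TPM (-0.36 ± 0.32). Of 11 tested lipid droplet genes, CIDEC was the 1 gene called lower, and the count was 2 without BLSE replicate 1, without IWR1 replicate 1 or without IWR1 replicate 2. PLIN2, a coat protein of lipid droplets, stood at 63.6 and 67.9 against 14.4 and 18.2 TPM (-1.96 ± 0.21, just under 4-fold). PLIN1, the droplet coat of adipocytes, was under 1 TPM in all 4 libraries.

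Markers of vessels, blood and muscle were measured because the BLSE cells were unsorted. Of 13 endothelial genes tested, 5 were lower in IWR1 PGCLCs. ANGPT2, a secreted antagonist of the TIE2 receptor, stood at 365 and 396 TPM in BLSE cells and 2.02 and 6.24 TPM in IWR1 PGCLCs (-6.35 ± 0.33) and made up most of the summed level of BLSE cells, which was 570.1 to 612.6 TPM in BLSE cells and 77.0 to 77.8 TPM in IWR1 PGCLCs. KDR (VEGFR2), a receptor of endothelial and mesodermal progenitors, differed by -2.61 ± 0.38, whereas CDH5 (VE-cadherin), which defines endothelium, was at 18 and 20.2 against 17.1 and 17.9 TPM (-0.12 ± 0.30, not called). EMCN, another endothelial surface gene, was listed at 0 in all 4 libraries. Of 5 blood genes tested, CD226, an adhesion receptor of lymphocytes and platelets, was the 1 called gene (363 and 242 against 2.04 and 4.10 TPM, -6.24 ± 0.36), and the defining genes GATA1 and PTPRC (CD45) were at 0.26 TPM or less. The summed blood level was 252.9 to 370.6 TPM in BLSE cells and 14.4 to 22.2 TPM in IWR1 PGCLCs, and CD226 made up most of it in BLSE cells. ALAS2, an enzyme of heme synthesis known from red cells, stood at 199.8 and 195 against 1.40 and 2.48 TPM (-6.10 ± 0.38). Of 7 cardiac and smooth muscle genes tested, the myosin MYL7, the cardiac factor NKX2-5 and the smooth muscle genes ACTA2 and CNN1 were lower, or 2 of 7 without BLSE replicate 2, and the summed level was 136.3 to 171.1 TPM in BLSE cells and 28.4 to 31.0 TPM in IWR1 PGCLCs. The part of vessel, blood and muscle cells in the mesodermal difference was not tested.

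Amnion and trophoblast lists followed the same direction in part. Of 14 amnion genes tested, 5 were lower and 9 were not called (median -1.31), and the summed level was 4799.4 to 4874.7 TPM in BLSE cells, most of it KRT19 and HAND1, and 498.0 to 696.3 TPM in IWR1 PGCLCs. KRT19 stood at 2743 and 2541 against 167 and 187 TPM (-3.89 ± 0.20), and VTCN1, a surface protein of late amnion, at 44.4 and 52 against 8.36 and 4.48 TPM (-2.77 ± 0.35). GATA2 and GATA3, BMP-induced factors of amnion and trophoblast, were not called (131 and 209 against 66.9 and 124 TPM for GATA2, and 88.8 and 130.2 against 38.9 and 81.4 TPM for GATA3). Of 7 trophoblast genes tested, 4 were lower, among them VGLL1, a TEAD cofactor (18.3 and 40.0 against 1.23 and 0 TPM, -4.23 ± 0.44), and PGF, a placental growth factor (-3.06 ± 0.29), and the median was -3.06. The summed trophoblast level was 253.1 to 326.3 TPM in BLSE cells and 101.1 to 159.4 TPM in IWR1 PGCLCs.

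**Figure D4:**
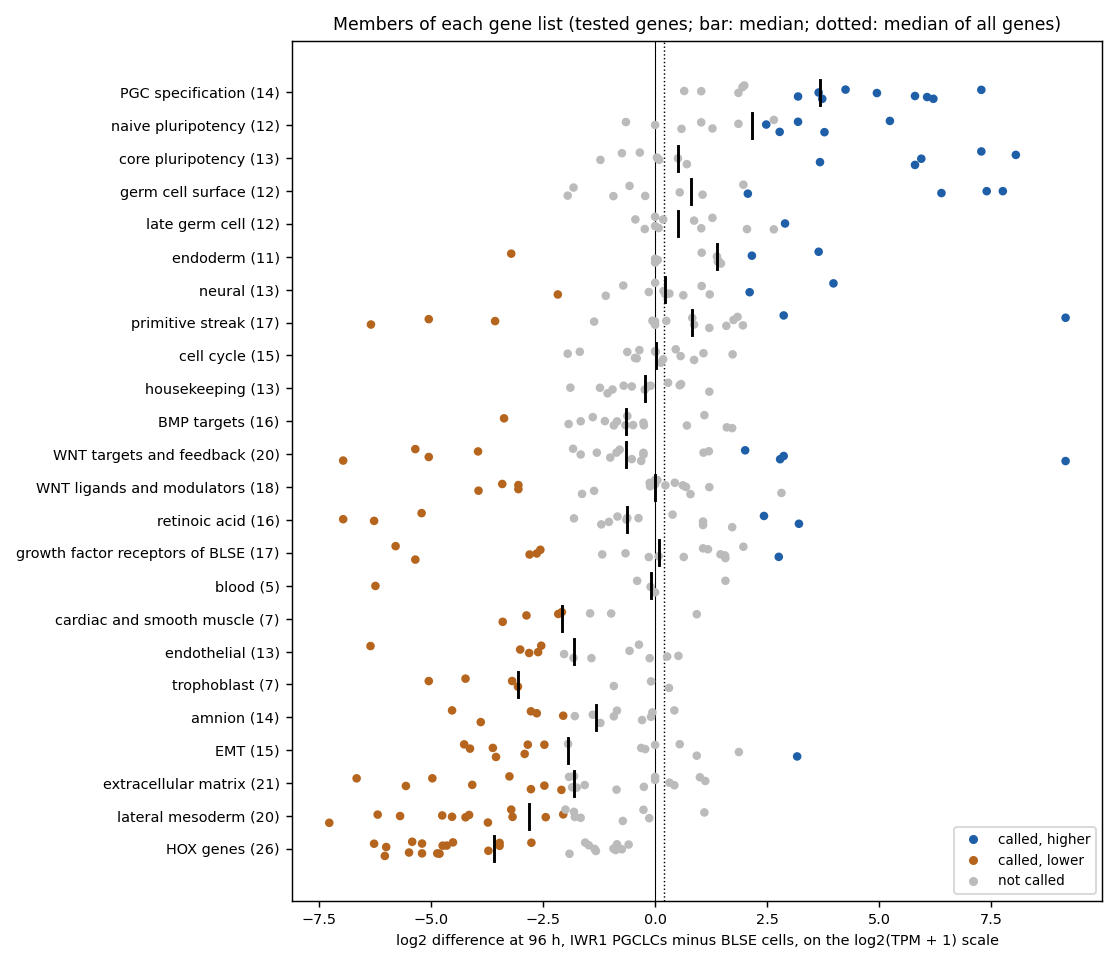
Log2 difference at 96 h (IWR1 PGCLCs minus BLSE cells, x axis) of each tested member (points) of 24 gene lists, with the number tested in parentheses, the median of the list as a bar and the median of all genes, 0.20, as a dotted line. Called members are coloured, and the medians run from 3.69 for PGC specification to -3.60 for HOX genes.

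CYP26A1 was placed among the other genes of retinoic acid metabolism and response. Of 16 tested, 3 were lower (CYP26A1 and CRABP2 among them), 2 were higher (CRABP1 and RXRG) and 11 were not called, with a median of -0.63. CRABP2, which carries retinoic acid to its nuclear receptors, stood at 1641 and 2037 TPM in BLSE cells and 54.7 and 43.1 TPM in IWR1 PGCLCs (-5.21 ± 0.36), while CRABP1, its relative, stood at 1.75 and 3.17 against 35.4 and 26.1 TPM (3.21 ± 0.36). RDH10 and ALDH1A3, enzymes that make retinoic acid, were not called and had differences of 1.72 ± 0.24 and 1.07 ± 0.31. The receptors RARA, RARB and RARG were not called (-0.37, -0.64 and 0.39). RXRG, a retinoid X receptor, was at 0.54 and 0 against 5.78 and 5.56 TPM. It was not called in 2 of the 11 alternative settings, including that without BLSE replicate 1.

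WNT target genes went in both directions. Of 20 tested, 4 were lower, 4 were higher and 12 were not called, with a median of -0.65. LEF1, a β-catenin partner that is itself a target, stood at 51.4 and 52.3 TPM in BLSE cells and 0.37 and 0.22 TPM in IWR1 PGCLCs (-5.35 ± 0.28), and MYC, a growth regulator, at 269.6 and 236 against 15.9 and 14.9 TPM (-3.95 ± 0.14). CDX2 and CYP26A1 made up the rest of the lower genes. NKD1 (0.67 and 1.17 against 10.5 and 14 TPM, 2.79 ± 0.25) and NOTUM (11.2 and 17.2 against 49.6 and 69.8 TPM, 2.01 ± 0.24), both feedback inhibitors of WNT, were higher, as were TBXT and CDX1. NOTUM was not called in 5 of the 11 alternative settings, including those without BLSE replicate 1 and without IWR1 replicate 2. AXIN2, the feedback gene most used as a readout, was low in both arms, at 1.37 and 1.93 against 1.59 and 0.88 TPM (-0.26 ± 0.30, not called), and SP5, a zinc finger factor under direct WNT control, was at 1.42 and 1.61 against 1.14 and 1.06 TPM. Of 18 ligands and modulators tested, WNT3A, WNT5B, RSPO4 and SFRP1 were lower and 14 were not called. WNT3A stood at 14.7 and 26 against 1.12 and 1.91 TPM (-3.05 ± 0.32), and SFRP1, a secreted antagonist, at 141 and 123 against 8.03 and 7.18 TPM (-3.94 ± 0.27). At 48 h MYC stood at 249 and 269.6 TPM in BLSE cells and 252 and 295 TPM in the IWR1 arm. The IWR1 cells were unsorted at 48 h and sorted at 96 h, and the part of sorting in this change of MYC was not tested.

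The genes that answer BMP4, which both arms received, were mostly not called, as were most of all genes tested (3.83% higher and 4.72% lower). Of 16 tested, NOG, a secreted BMP antagonist, was the 1 called gene (26.7 and 26.9 against 1.12 and 2.41 TPM, -3.37 ± 0.36), and the median was -0.64. ID1, a direct target, was at 234 and 260.0 against 762 and 874 TPM (1.72 ± 0.18), and BAMBI, a decoy receptor, at 884 and 1099 against 211 and 316 TPM (-1.93 ± 0.18), neither past 4-fold and in opposite directions. The count was 2 without BLSE replicate 1 or without IWR1 replicate 2.

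A list of cytokine receptors and of genes downstream of them gave calls in both directions. LIFR, the LIF receptor, stood at 99.6 and 78.3 TPM in BLSE cells and 14.3 and 13.9 TPM in IWR1 PGCLCs (-2.56 ± 0.26). EGFR, the EGF receptor, stood at 113 and 115 against 1.54 and 2.13 TPM (-5.35 ± 0.29), and ERBB2 at 57.4 and 58 against 6.44 and 10.9 TPM (-2.64 ± 0.23), while ERBB3 was higher in IWR1 PGCLCs (13.4 and 20.0 against 113 and 120.4 TPM, 2.76 ± 0.20). DUSP6 and SPRY4, which ERK signaling induces and which limit it, were lower, at 233 and 233 against 2.54 and 4.05 TPM (-5.79 ± 0.34) and -2.80 ± 0.26. The BMP receptors BMPR1A and BMPR2 were not called (-0.14 and -1.18). Of the 17 genes of this list, 5 were lower, 1 was higher and 11 were not called.

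Of 9 genes of DNA methylation tested, 2 were lower and 7 were not called. UHRF1, which brings DNMT1 to replicating DNA, stood at 146 and 164 TPM in BLSE cells and 20.1 and 22.5 TPM in IWR1 PGCLCs (-2.81 ± 0.15), and GADD45A, a stress and repair factor, at 368 and 403 against 47.8 and 59.5 TPM (-2.83 ± 0.21). DNMT1 itself was at 165 and 171 against 57.4 and 72.7 TPM (-1.36 ± 0.17, not called). The 15 cell cycle genes tested gave 0 calls in either direction by limma and a median of 0.01, and at an unadjusted p under 0.05, 5 were higher and 5 lower. CCND2, a D-type cyclin, and CCNE1, an S phase cyclin, had the differences farthest apart (1.73 ± 0.28 and -1.95 ± 0.14), and 1 gene was lower without IWR1 replicate 1. The 13 housekeeping genes also gave 0 calls, with a median of -0.23, and at an unadjusted p under 0.05, 4 were higher and 8 lower, while 1 was called lower without IWR1 replicate 2. Over all 11197 genes tested, 6663 had an unadjusted p under 0.05 by limma, 4190 of them higher and 2473 lower. The cytoskeletal gene ACTB stood at 6651 and 6237 against 2849 and 2663 TPM (-1.23 ± 0.08).

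Endoderm and neural lists gave 3 called genes each. Of 11 endoderm genes tested, SOX17 and HHEX, a homeobox gene also used in early endoderm (6.85 and 10.9 against 51.2 and 35 TPM, 2.16 ± 0.34), were higher and GATA6 was lower. FOXA2, which defines endoderm and which germ cells lack, was at 1.14 and 2.92 against 5.74 and 7.67 TPM (1.40 ± 0.42, not called). HHEX was not called in 4 of the 11 alternative settings, including those without BLSE replicate 1 and without IWR1 replicate 1. Of 13 neural genes tested, FABP7, a fatty acid carrier of radial glia, was higher (7.34 and 5.48 against 132 and 100.5 TPM, 3.98 ± 0.23). ZIC2, a zinc finger factor of epiblast and neural plate, was higher at a low level (4.2 and 11.1 TPM). It lost its call in 5 of the 11 alternative settings, including those without BLSE replicate 1 and without IWR1 replicate 2. NES (nestin), a filament protein of neural progenitors, was lower (469 and 459.6 against 94.8 and 111 TPM, -2.17 ± 0.13).

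The earlier time point compared the arms when cells of neither had been sorted. At 48 h, 116 genes were higher in the IWR1 arm (1.04%) and 151 lower (1.35%). Which way the 48 h calls leaned rested on single libraries, since without IWR1 replicate 1 they were 207 higher and 142 lower, and without IWR1 replicate 2 they were 77 higher and 198 lower. With only these 4 libraries in the limma model 0 genes passed the threshold and 3036 had an unadjusted p under 0.05. The 48 h libraries are not those of the 96 h comparison. Of the 528 genes lower at 96 h, 116 were lower at 48 h, which is 22% of the 528 and 76.8% of the 151 lower there. Of the 429 genes higher at 96 h, 41 were higher at 48 h, which is 9.6% of the 429 and 35.3% of the 116. The genes lower at 96 h had a median of -1.14 at 48 h and the genes higher at 96 h a median of 0.85, against 0.03 for all genes.

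At 48 h, 4 of 13 core pluripotency genes were higher in the IWR1 arm (NANOG, SOX2, PRDM14 and UTF1), and the last pair were also the 2 called of the 14 PGC specification genes. NANOG stood at 31.5 and 22.6 TPM in BLSE cells at 48 h and 242 and 286 TPM in the IWR1 arm (3.26 ± 0.17), and SOX2 at 2.44 and 4.08 against 41.4 and 68.4 TPM (3.70 ± 0.28). NANOS3 stood at 3.82 and 3.44 against 15.8 and 10.2 TPM (1.57 ± 0.29, not called), and SOX17 at 57.6 and 57.1 against 25.3 and 15.9 TPM (-1.47 ± 0.29, not called). WNT8A, a ligand of the primitive streak, was higher in the IWR1 arm at 48 h (28.3 and 26.9 against 263 and 298 TPM, 3.30 ± 0.41) and stood at 1.43 and 1.2 TPM in IWR1 PGCLCs at 96 h. FGF8, a growth factor made in the streak, was higher at 48 h too (0.92 and 1.98 against 40.0 and 36.5 TPM, 4.03 ± 0.48) and stood at 2.15 and 1.27 TPM at 96 h.

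**Figure D5:**
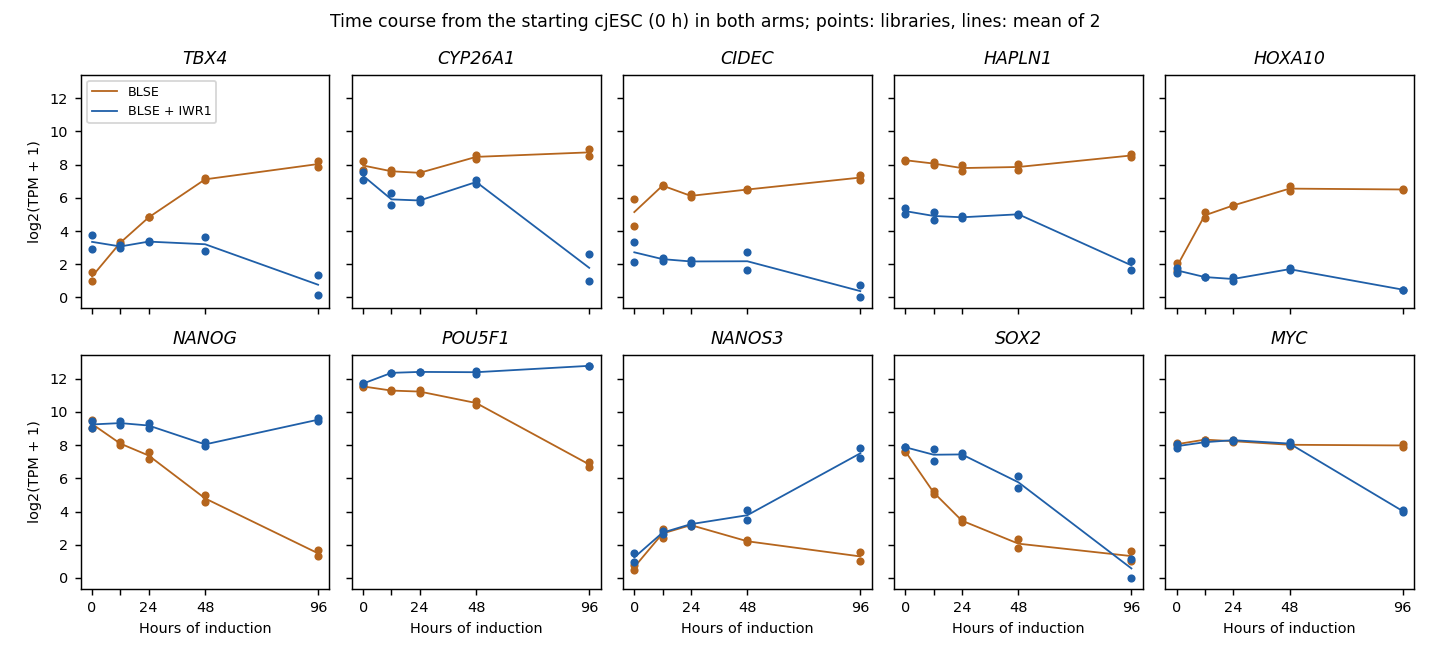
Log2(TPM + 1) of 10 genes (panels) from the starting cjESC (0 h) through 12, 24, 48 and 96 h in BLSE (DK20FA start) and BLSE + IWR1 (PESFA start), with each library as a point and the mean of 2 as a line. In BLSE, NANOG falls while TBX4 and HOXA10 climb, and in BLSE + IWR1, NANOS3 climbs and CYP26A1, SOX2 and MYC drop between 48 and 96 h, when the IWR1 cells also change from unsorted to sorted.

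The starting cells were compared by the same labels, since the genotype label of cjESC in DK20FA carries the transgenes of the TG+ line, though their title does not, and that of cjESC in PESFA is wild type. Before induction, 162 genes were higher in cjESC in PESFA than in DK20FA (1.45%) and 66 were lower (0.589%), and with only these 4 libraries in the limma model 0 genes passed and 2877 had an unadjusted p under 0.05. Of the 429 genes higher at 96 h, 10 were higher and 10 were lower at the start, and of the 528 genes lower at 96 h, 23 were lower and 29 were higher. Their medians at the start were 0.08 and -0.04, against -0.08 for all genes. With the starting difference taken away, the change from cjESC to 96 h was higher in the IWR1 arm for 491 genes (4.39%) and lower for 580 (5.18%), or 365 and 749 after median-ratio scaling. NANOG (8.08 ± 0.24), POU5F1 (5.77 ± 0.14) and DND1 (6.92 ± 0.36) were among the former, and ANGPT2 (-8.16 ± 0.47), OLFML2B (-8.13 ± 0.50) and PITX1 (-7.62 ± 0.66) among the latter. This contrast shares its 96 h libraries with the comparison between the arms.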

How the data were processed

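The authors aligned single-end reads of poly(A) RNA to the marmoset genome with STAR, quantified genes with RSEM and deposited 1 TPM value per gene and library; read counts were not used here. All differences were computed here from these TPM as log2(TPM + 1). A gene was kept where any of the 54 libraries reached 1.5 on that scale (11197 of 14812 in the table). limma 3.58.1 in R 4.3.3 fitted the 27 conditions together with an intensity trend (27 residual degrees of freedom), with Benjamini-Hochberg adjustment over all genes. Replicates are those of the labels, and the paper calls the samples of each condition biological duplicates. Where they are not separate cultures, p-values measure technical spread. An exact permutation test of 2 against 2 cannot give a p under 0.33. On simulated data at the 96 h comparison, with 11197 genes, 200 of 200 genes changed 8-fold were recovered, and 0 of 10997 unchanged genes were called. The changed genes were drawn only from those well above 0 TPM in BLSE cells, with normal noise at each gene's pooled spread. Recovery of genes near 0 TPM in BLSE cells and of changes near 4-fold was therefore not tested. Comparisons and gene lists were chosen with earlier results of these data known. Named genes were the 15 with the largest called difference in each direction and members of the lists. Alternatives were the pseudocount, the filter, the scaling, the trend, the replicate block, the libraries fitted and leaving out each library. List members absent from the table were not analysed here, and 1 gene counted in the lists is not reported here.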

Additional observations from a re-analysis of the deposited data

Results flagged for a closer look

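NEFM, the medium chain of the neurofilaments, was the 1 gene called in opposite directions at 48 h and 96 h, and it was chosen after its values were seen. At 48 h it stood at 71.2 and 87.7 TPM in BLSE cells and 540.4 and 520.3 TPM in the IWR1 arm (2.73 ± 0.37), with the IWR1 libraries higher. At 96 h it stood at 25.9 and 43.3 TPM in BLSE cells and 6.98 and 6.57 TPM in IWR1 PGCLCs (-2.15 ± 0.37), with the IWR1 libraries lower. This 96 h difference was not called in 3 of the 11 alternative settings, including that without BLSE replicate 2. The 96 h difference less the 48 h difference was -4.88 on the log2 scale (adjusted p = 3.42e-09, limma), and it ran from -5.24 to -4.52 over the alternative settings. An adjusted p under 0.01 for this same difference was part of the rule that chose NEFM, so the p-value is no separate support. The IWR1 cells were unsorted at 48 h and sorted at 96 h, and the part of sorting in this change was not tested.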

How the results depend on the processing

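The 957 genes called at 96 h kept their call in 779 cases with only the 4 libraries compared in the model, in 957 with the replicate block and in numbers between these elsewhere, and 0 turned direction. Of 150 genes named in the text and tested, 125 had the same call at 96 h in all 11 alternatives, and 16 of the 104 called lost it in at least 1. The replicate numbers were only shared names, since same-numbered libraries of the 96 h arms deviated together at r = 0.048, and with the replicate block 957 genes were called. Totals ran from 970 to 1004 without one library each, and the split was 566 higher and 608 lower with a pseudocount of 0.1 and 353 and 590 after quantile normalization. With only the libraries compared in the model, counts became 0 at 48 h, 0 in the starting cells, 0 against SOX17 PGCLCs (41 to 98 without one library each) and 433 for the 96 h difference less the 48 h difference (608 with all libraries). Counted at an adjusted p under 0.01 with no fold limit, the last were 802 and 2563. There, the lower counts at 96 h became 1 of 7 for trophoblast and 3 of 14 for amnion genes, and the higher counts became 2 of 20 for WNT targets and 1 of 17 for primitive streak genes. That setting leaves 2 residual degrees of freedom for a pair of groups. Depth is unknown, so how far it limits genes near 0 TPM cannot be given. A search of promoters for motifs was not run, as no sequence of this genome was used here.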

Other observations

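Stress genes were called in both directions. Of 15 immediate early, heat shock and dissociation genes tested, FOS and NR4A1 were higher in IWR1 PGCLCs, ATF3 was lower and 12 were not called, or 1 higher without IWR1 replicate 2, beside 3.83% of all genes higher and 4.72% lower. Their summed level was 1377.4 to 1415.6 TPM in BLSE cells and 1347.7 to 1938.6 TPM in IWR1 PGCLCs. NR4A1, a nuclear receptor of the early response, stood at 0.55 and 1.01 against 49.4 and 87.7 TPM (5.24 ± 0.36), and ATF3, a stress-induced repressor, at 159 and 150.3 against 5.11 and 4.81 TPM (-4.71 ± 0.38). NR4A1 was also higher in the IWR1 arm at 48 h (0.99 and 0.22 against 3.53 and 15.6 TPM, 2.48 ± 0.36).

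Of 9 glucocorticoid targets tested, FKBP5, a chaperone partner of the receptor, was lower (178 and 155 against 24.9 and 28.3 TPM, -2.60 ± 0.17), TAT, a tyrosine aminotransferase, was higher (0.20 and 0 against 49.5 and 49.5 TPM, 5.53 ± 0.38) and 7 were not called, with 2 lower without BLSE replicate 2. Neither arm received dexamethasone. TAT stood at 104 and 178 TPM in SOX17 PGCLCs, which did.

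The IWR1 arm was also carried on to day 6 and cultured in a variant labelled BMS. The variant added BMS493, an inverse agonist of retinoic acid receptors. At 96 h under BMS, TBX4 stood at 0.26 and 0.24 TPM, CYP26A1 at 0.82 and 0.15 TPM, CIDEC at 1.90 and 3.29 TPM and HAPLN1 at 1.78 and 1.49 TPM. At day 6, TBX4 stood at 0.14 and 0.38 TPM, HAPLN1 at 1.08 and 2.52 TPM, and CYP26A1 and CIDEC were listed at 0 in both libraries. None of these values reached those of either BLSE library at 96 h.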
